A study of Rattus norvegicus with 15 samples.

Results

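Circular RNAs (circRNAs) listed in a single library of a whole-blood study are described here. The deposited table names 43472 circRNAs in 15 libraries, and 20878 of them (48.0%) had a value above 0 in exactly 1 library. These members were selected on the values of the table itself, so their levels and numbers are given as descriptions, with no test. A circRNA is called listed where its value is above 0 and listed at 0 otherwise.

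The blood came from male rats of the outbred Sprague-Dawley strain, aged 6 to 8 weeks and weighing 250 to 300 g, in a model of deep venous thrombosis (DVT), in which a clot forms in a deep vein. The 5 groups of 3 libraries were sham, labelled 0 h, and rats sampled 1 h, 6 h, 12 h and, at 3 d, 72 h after modelling. The labels say neither how the thrombosis was produced nor whether libraries of the same group stand for different animals, and the spread within a group may thus be technical. Titles carry 1 of 2 prefixes, A&B (sham, 1 h and 3 d) or C (6 h and 12 h), whose meaning is not given, so the time and this prefix cannot be told apart for 6 h and 12 h against the rest. The table pairs no circRNA with a host gene, a sequence or coordinates, so circRNAs are named by their running number and the tissue label could not be checked against marker genes.

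A circRNA forms when the spliceosome joins a downstream splice donor to an upstream acceptor, a back-splice, and closes the RNA into a loop. Loops have no free ends for exonucleases to attack and can outlast their linear counterparts, which makes them detectable in blood cells and platelets. Many back-splices are made rarely beside the linear transcript of the same gene. Tools such as find_circ, which the file's name gives, recognise a circRNA by reads that cross the back-splice, so a rare loop rests on few reads.

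Values are SRPBM, back-spliced reads per 1e9 mapped reads of a library, and M stands for 1e6. All values above 0 were whole multiples of a single step per library, and the smallest was 2 steps, so each value was read as a number of back-spliced reads from 2 up. Mapped reads were computed as 1e9 divided by the step, not taken from the labels. They ran from 66.0 to 92.4 M per library, and total back-spliced reads from 0.119 to 2.52 M. Sham replicate 2 and 1 h replicate 1 stood apart, with 2958 and 2551 circRNAs against 9354 to 15366 in the other 13 libraries. They were kept, and results that rest on them are also given without them.

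Most members rested on 2 to 4 reads. Of the 20878 members, 6435 (30.8%) had 2 reads, 5297 (25.4%) had 3 and 3558 (17.0%) had 4. The median was 3 reads, the 90th percentile 7 and the 99th percentile 14. At least 10 reads were held by 648 members (3.10%), at least 20 by 67 (0.321%), at least 50 by 4 and at least 100 by a single one, CBT15_circR_5194. Values of circRNAs listed in 2 or more libraries had a median of 7 reads, and 20.1% of them were 2 or 3 reads, against 56.2% among the members. The members made up 12.98% of the 160822 values above 0 in the table.

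Members became rarer as reads rose, although a circRNA listed in more libraries also has more values from which its highest is taken. Among circRNAs whose highest value was 2 reads, 6435 of 6869 (93.7%) were members. That share was 79.2% at a highest value of 3 reads, 59.8% at 4 or 5, 29.8% at 6 to 9 and 9.12% at 10 to 19. At 20 to 49 reads it was 2.05% (63 of 3080), and at 50 or more it was 0.237% (4 of 1686). The circRNAs just outside the rule, the 5827 listed in exactly 2 libraries, had a median of 4 reads per value, and 8.79% of them reached 10 reads in their higher library. CircRNAs listed in all 15 libraries numbered 886, with a median of 60 reads.

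**Figure D1:**
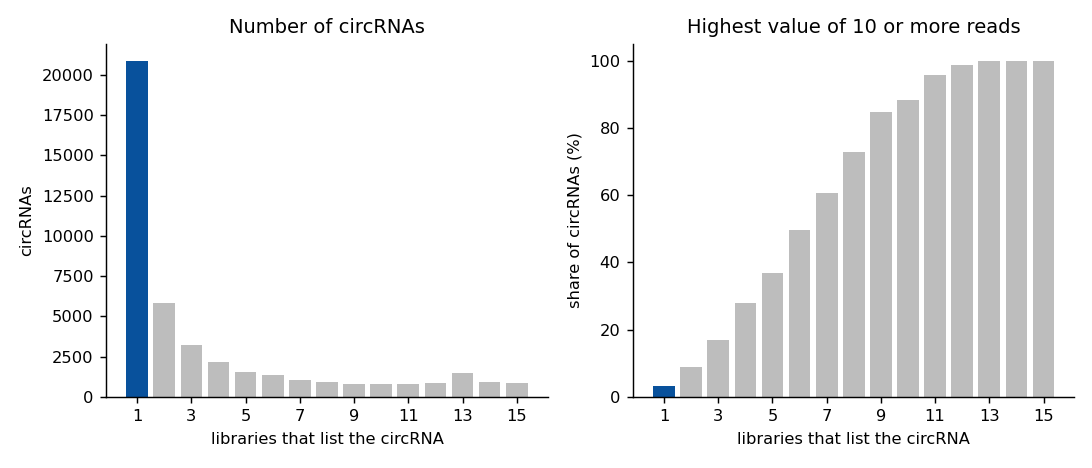
Number of circRNAs (left) and share of them whose highest value is 10 or more reads (right, in percent), by the number of libraries that list them, with members in blue and all other circRNAs in grey. The bar of members holds 20878 circRNAs and the next one 5827, and the share with 10 or more reads rises from 3.10% for members to 8.79% for circRNAs of 2 libraries and 100% for those of all 15.

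Every library held members, from 256 to 2392. The sham libraries held 997, 414 and 1558 of them (replicates 1 to 3), 990 ± 572 (SD, n = 3). The 1 h libraries held 256, 1470 and 2392, or 1373 ± 1071 (n = 3). In both groups the lowest library was the one with few circRNAs in all.

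The 6 h libraries held 1556, 1297 and 2240 members, 1698 ± 487 (SD, n = 3). Members numbered 1714, 2112 and 1310 at 12 h, or 1712 ± 401 (n = 3). At 3 d the 3 libraries lay close together at 1198, 1175 and 1189, or 1187 ± 11.6 (n = 3). The range of each of the other 4 groups overlapped that of every other among them, and the 3 d libraries lay within the ranges of sham and 1 h. They lay below all 6 libraries of 6 h and 12 h, which carry the other title prefix.

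Counted by group, sham contributed 2969 members (14.2%), 1 h 4118 (19.7%), 6 h 5093 (24.4%), 12 h 5136 (24.6%) and 3 d 3562 (17.1%). The 12 libraries after modelling together listed 17909 members (85.8%) and the 3 sham libraries the rest. The sham libraries hold 24973 (15.5%) of the 160822 values above 0, beside 14.2% of the members. Without sham replicate 2 and 1 h replicate 1, 42799 circRNAs remained, of which 20453 (47.8%) were in a single library. With these taken as members, the mean number was 1296.5 in the 2 sham libraries and 1963.5 in the 2 libraries of 1 h. In whole blood, a lower number can go with fewer cells of a type, less RNA per cell or fewer back-spliced reads in a library. These cannot be told apart here, and none of them was tested.

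Relative to what each library listed, members differed less between libraries than in number. Their share of a library's circRNAs ran from 10.04% (95% Wilson interval 8.93 to 11.3) in 1 h replicate 1 to 15.6% (15 to 16.1) in 1 h replicate 3. These intervals, like the others below, cover counting error only. PCR copies are not independent molecules, so the intervals on reads may be too narrow even for that. The group means were 12.3 ± 1.81% in sham and, in order of time, 12.7 ± 2.77%, 13.3 ± 1.51%, 13.4 ± 1.26% and 11.7 ± 0.758% (SD, 3 libraries each). The ranges of all 5 groups overlapped. Without sham replicate 2 and 1 h replicate 1, but with members still chosen over all 15 libraries, the means were 11.5% in sham and 14.1% at 1 h (2 libraries each). With members chosen anew over the 13 libraries they were 11.6% and 14.3%.

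The 3 libraries with the most circRNAs also had the highest shares. 1 h replicate 3 listed 15366 circRNAs with 15.6% members. In 6 h replicate 3 it was 15.03% (14.5 to 15.6) of 14900, and in 12 h replicate 2 it was 14.5% (13.98 to 15.1) of 14523. Sham replicate 2 came next, at 14% (12.8 to 15.3), although it listed 2958 circRNAs. Per 1 M mapped reads, sham replicate 2 held 6.27 members and 1 h replicate 1 held 3.49, against 11.2 to 27.3 in the other 13 libraries. Their mapped reads were 66.0 and 73.3 M. 3 d replicate 3 had 69.3 M mapped reads and held 1189 members. Its total of back-spliced reads was 2.52 M, the highest of all, against 0.202 M in sham replicate 2 and 0.119 M in 1 h replicate 1. What part either depth has in the number of members was not tested.

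**Figure D2:**
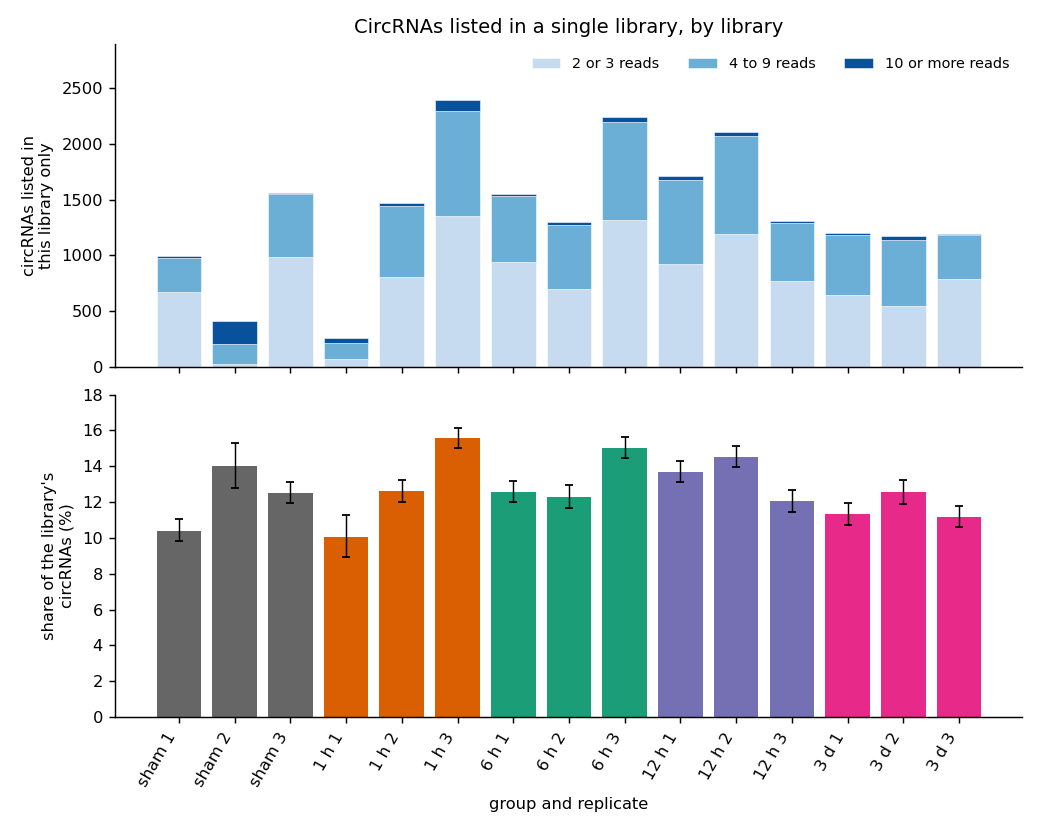
Upper panel: number of members in each library, stacked by their back-spliced reads (2 or 3, 4 to 9, 10 or more). Lower panel: members as a percentage of the circRNAs that the library lists, with 95% Wilson intervals as bars and 1 colour per group. Sham replicate 2 and 1 h replicate 1 are lowest in the upper panel, with 414 and 256, and stand at 14% and 10.04% in the lower one.

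The members of sham replicate 2 were of another kind by their reads. Their median was 10 reads, against 5 in 1 h replicate 1 and 3 or 4 in the other 13 libraries. Only 6.28% (4.32 to 9.04) of them had 2 or 3 reads, against 27.0% (21.9 to 32.7) in 1 h replicate 1 and from 46.4% (43.5 to 49.2, 3 d replicate 2) to 67.5% (64.5 to 70.3, sham replicate 1) elsewhere. On the SRPBM scale the median member lay at 151 in sham replicate 2 and 68.2 in 1 h replicate 1, against 32.5 to 44.6 in the other libraries.

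The other circRNAs of sham replicate 2 moved with this: they had a median of 18 reads there and 11 in 1 h replicate 1, against 6 to 9 elsewhere, and 1.93% and 7.97% of them had 2 or 3 reads, against 15.4% to 24.3%. In 13 of 15 libraries the mean number of reads per member thus lay between 3.32 and 4.27, and it was 11.4 in sham replicate 2 and 6.38 in 1 h replicate 1. What part the low number of circRNAs in these libraries has in the reads of their members was not tested.

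At equal reads between 6 and 49, a circRNA of sham replicate 2 was more often listed nowhere else. Of its circRNAs with 6 to 9 reads, 25.0% (21.5 to 29.0) were members, against 13.9% (11.4 to 17.0) in 1 h replicate 1 and 7.92% (7.63 to 8.22) in the other 13 libraries together. For 10 to 19 reads the shares were 17.8% (15.5 to 20.3), 6.19% (4.58 to 8.32) and 1.45% (1.31 to 1.60), and no single library of the 13 was above 3.42%. For 20 to 49 reads they were 5.82% (4.36 to 7.72), 0.891% (0.347 to 2.27) and 0.0901% (0.0546 to 0.149). With 2 reads the order was different, at 28.0% (14.3 to 47.6), 25.5% (18.03 to 34.7) and 33.7% (33.0 to 34.4), and these intervals overlap. Equal reads did not mark an equal place within the libraries. CircRNAs other than members had a median of 18 reads in sham replicate 2, 11 in 1 h replicate 1 and 6 to 9 elsewhere.

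**Figure D3:**
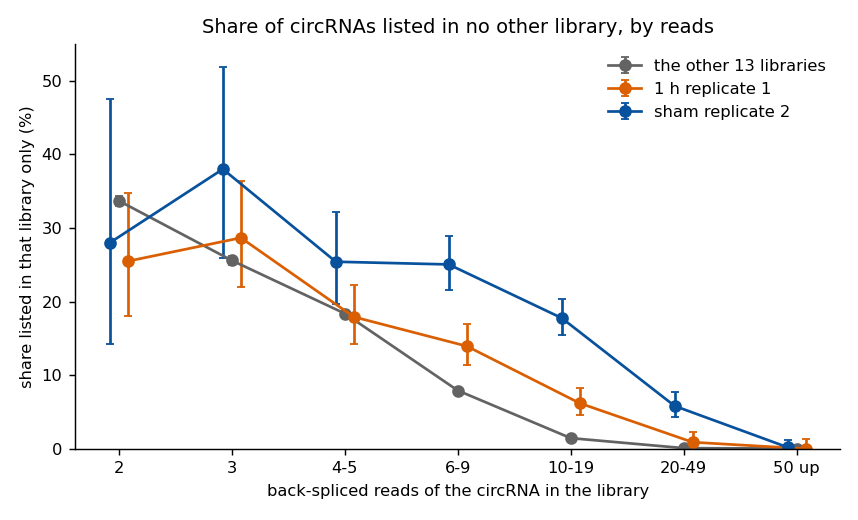
Share of a library's circRNAs that no other library lists, in percent, by their back-spliced reads in that library, for sham replicate 2, 1 h replicate 1 and the other 13 libraries pooled, with 95% Wilson intervals. From 3 reads up the line of sham replicate 2 lies above the others, with 17.8% against 6.19% and 1.45% at 10 to 19 reads. Its interval overlaps both others at 3 reads and at 50 or more, and that of 1 h replicate 1 at 4 or 5. At 50 or more it rests on 1 of 487 circRNAs. Equal reads mark a lower place among the circRNAs of sham replicate 2 than among those of the other 13 libraries.

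Members with many reads were unevenly spread. Sham replicate 2 held 414 members (1.98% of all) but 212 of the 648 with at least 10 reads (32.7%) and 45 of the 67 with at least 20 (67.2%). The next library, 1 h replicate 3, held 90 of the 648 and 6 of the 67. Sham replicates 1 and 3, from the same group, held 23 and 6 of the 648 and none of the 67. In sham replicate 1 the highest member had 17 reads, and in sham replicate 3 it had 11.

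The reads of all members added up to 82131, or 0.422% of the back-spliced reads of the 15 libraries. By library the share ran from 0.157% (0.152 to 0.162) in 3 d replicate 3 to 2.33% (2.27 to 2.40) in sham replicate 2. The 4 highest shares were those of sham replicate 2, 1 h replicate 1 (1.38%), 6 h replicate 3 (1.15%) and 1 h replicate 2 (0.862%). In these 4 libraries CBT15_circR_5191, the circRNA with the highest signal, was listed at 0, and in the other 11 it lay at 8.74 to 28.7 M SRPBM and the members' share was at most 0.601%.

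With circRNAs that reach 1 M SRPBM in any library left out of the total, members took 2.31% of the reads. The share by library then ran from 1.78% in sham replicate 1 to 2.58% in 6 h replicate 3, and was 3.59% in sham replicate 2. With all circRNAs in the total, the group means from sham to 3 d were 0.977 ± 1.17%, 0.947 ± 0.395%, 0.629 ± 0.461%, 0.396 ± 0.0104% and 0.286 ± 0.116% (SD, 3 libraries each). Without sham replicate 2 the sham mean was 0.2997%, below those of 1 h, 6 h and 12 h and above that of 3 d, and without 1 h replicate 1 the 1 h mean was 0.731%. Without the circRNAs that reach 1 M they were 2.49 ± 0.965%, 2.34 ± 0.217%, 2.33 ± 0.252%, 2.34 ± 0.0557% and 2.13 ± 0.124%. Here the sham mean without replicate 2 was 1.94%, below the means of the other 4 groups, and the 1 h mean without replicate 1 was 2.35%.

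**Figure D4:**
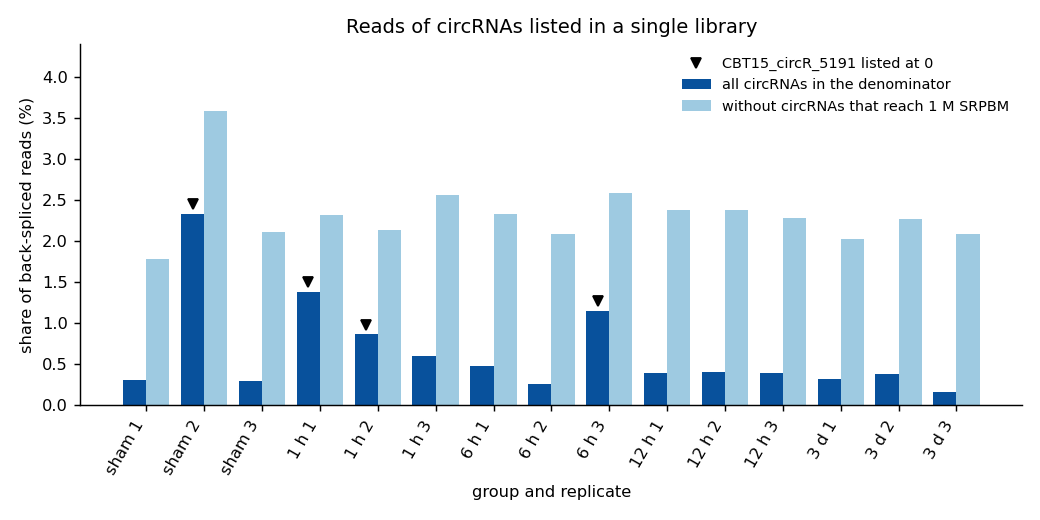
Share of each library's back-spliced reads held by members, in percent, with all circRNAs in the total (dark bars) and without circRNAs that reach 1 M SRPBM (light bars), with triangles over libraries where CBT15_circR_5191 is listed at 0. The 4 libraries with a triangle have dark bars of 0.862% to 2.33% and the other 11 of 0.157% to 0.601%, while the light bars lie between 1.78% and 3.59%.

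The highest member was CBT15_circR_5194, at 3550 SRPBM (309 reads, exact 95% Poisson interval 3165 to 3968 SRPBM for counting error only) in 6 h replicate 1 and listed at 0 in the other 14 libraries. It ranked 90th among the 12393 circRNAs of its library. The second, CBT15_circR_7176, lay at 954 SRPBM (63 reads, interval 733 to 1220) in sham replicate 2 and ranked 378th of 2958. CBT15_circR_17627, the third, lay at 691 SRPBM (61 reads, 529 to 888) in 12 h replicate 2.

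Of the 10 highest members, 7 were in sham replicate 2. Besides CBT15_circR_7176 these were CBT15_circR_27756 and CBT15_circR_40912 at 606 SRPBM (40 reads each), CBT15_circR_33111 at 575 (38 reads), CBT15_circR_21436 at 545 (36 reads), and CBT15_circR_8554 and CBT15_circR_26095 at 499.7 (33 reads each). The remaining one, CBT15_circR_37934, lay at 563 SRPBM (50 reads) in 1 h replicate 3. From the third on, neighbours in this order lay within each other's counting intervals, for example 433 to 825 SRPBM for CBT15_circR_27756 and 407 to 790 for CBT15_circR_33111. Sham replicate 2 also held 39 of the 50 highest members and 84 of the 100 highest.

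In 12 of the 15 libraries the highest member had fewer than 60 reads. The sham libraries were led by CBT15_circR_9527 (192 SRPBM, 17 reads, replicate 1), CBT15_circR_7176 (954 SRPBM, 63 reads, replicate 2) and CBT15_circR_2767 (128 SRPBM, 11 reads, replicate 3, tied with 2 others). At 1 h the highest were CBT15_circR_11925 (409 SRPBM, 30 reads), CBT15_circR_28742 (439 SRPBM, 37 reads) and CBT15_circR_37934 (563 SRPBM, 50 reads) in replicates 1 to 3. Replicates 2 and 3 of 6 h were led by CBT15_circR_23977 (181 SRPBM, 15 reads) and CBT15_circR_15677 (292 SRPBM, 24 reads). This is far under the 309 reads of CBT15_circR_5194 in replicate 1 of the same group.

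The highest members at 12 h were CBT15_circR_33920 (481 SRPBM, 43 reads), CBT15_circR_17627 (691 SRPBM, 61 reads) and CBT15_circR_33960 (216 SRPBM, 20 reads) in replicates 1 to 3. The 3 d libraries were led by CBT15_circR_19558 (239 SRPBM, 20 reads), CBT15_circR_27491 (312 SRPBM, 28 reads) and CBT15_circR_6074 (173 SRPBM, 12 reads). The leading members thus lay between 128 and 691 SRPBM in 13 libraries, with CBT15_circR_7176 and CBT15_circR_5194 above that range.

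CBT15_circR_5194 carries a number close to those of 3 of the 4 circRNAs that reach 1 M SRPBM, CBT15_circR_5184, CBT15_circR_5185 and CBT15_circR_5191. The other of the 4, CBT15_circR_1124, reached 2.21 M and is numbered far from them. What order the running numbers follow is not given in the sources used here. Within 6 h replicate 1, CBT15_circR_5191 lay at 9.66 M SRPBM and CBT15_circR_5185 at 1.54 M, so CBT15_circR_5194 stood at 0.0367% and 0.231% of them. It was listed at 0 in the other 10 libraries that list CBT15_circR_5191, including 3 d replicate 3, where that circRNA reached 28.7 M.

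Numbers 5174 to 5201, within 10 of any of the 3 abundant circRNAs, held 28 circRNAs, of which 11 (39.3%) were members, against 48.0% in the whole table. After CBT15_circR_5194 the highest of these members were CBT15_circR_5195 at 172 SRPBM (15 reads, 6 h replicate 1), CBT15_circR_5193 at 134 (12 reads, 12 h replicate 1), CBT15_circR_5189 at 89.5 (8 reads, 12 h replicate 1) and CBT15_circR_5175 at 71.2 (6 reads, 1 h replicate 2). 6 h replicate 1, with 7.45% of all members, listed 4 of the 11. The sham libraries, with 14.2% of all members, listed none of them, and of the 3 d libraries only replicate 2 listed 1. With 11 members these counts are too small to set groups apart. In the same stretch, CBT15_circR_5190, listed in 2 libraries, lay at 2164 and 1851 SRPBM in 12 h replicates 2 and 3 (191 and 171 reads) and was listed at 0 elsewhere.

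**Figure D5:**
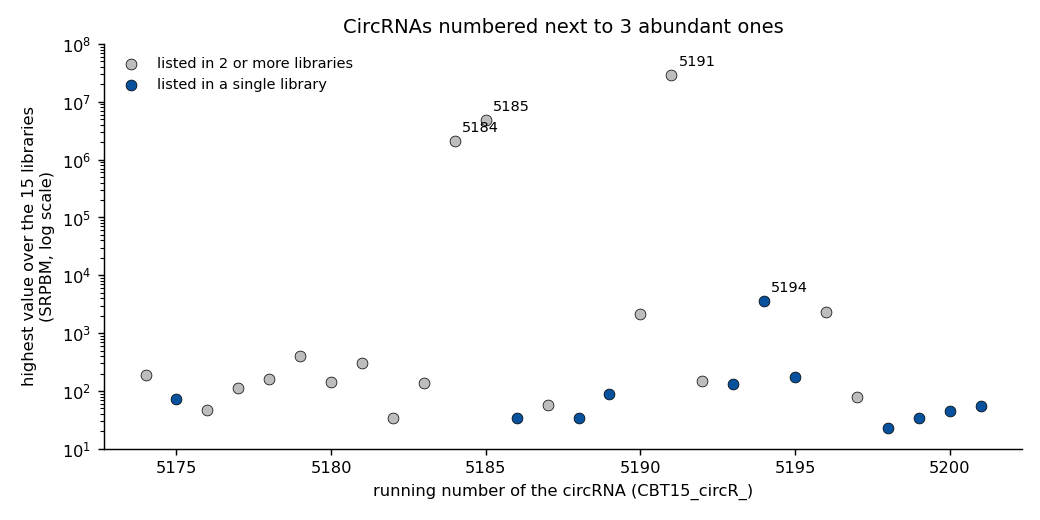
Highest value over the 15 libraries (SRPBM, log scale) of circRNAs with running numbers 5174 to 5201, with members in blue and circRNAs of 2 or more libraries in grey. CBT15_circR_5194, at 3550 SRPBM, is the highest of the 11 members and stands 3 numbers from CBT15_circR_5191, whose highest value is 28.7 M.

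For the other members of the 10 highest, no neighbour within 10 numbers was of that abundance. Their highest neighbour reached between 246 SRPBM (CBT15_circR_17637, beside CBT15_circR_17627) and 5466 SRPBM (CBT15_circR_21441, beside CBT15_circR_21436), and none reached 1 M. CBT15_circR_27756 had 15 members among its 20 neighbours, and CBT15_circR_7176 and CBT15_circR_26095 had 6.

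Along the running numbers of the whole table, the share of members lay between 46.8% and 50.2% in 10 stretches of 4000 numbers. A member was followed by another member in 51.3% of cases and any other circRNA was followed by a member in 45.0%. Of the 10719 pairs of members with adjacent numbers, 884 (8.25%) were in the same library. The libraries' shares of all members, each squared and then added up, give 7.80%. The longest unbroken run held 21 members.

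Members were by definition not shared, so the circRNAs listed exactly 2 times show how far the groups hold rare circRNAs in common. Of these 5827, 887 (15.2%) were in 2 libraries of the same group, and 15 of the 105 pairs of libraries (14.3%) are pairs within a group. Of the 3198 circRNAs listed in exactly 3 libraries, 38 were in all 3 libraries of a single group. The share of all sets of 3 libraries that lie within a group was not computed, so no excess can be read from the 38. Of these 38 the 6 h group held 23, the 12 h group 11, the 1 h group 3, the 3 d group 1 and sham 0. In the same order, the groups hold 37832, 37891, 29564, 30562 and 24973 of the 160822 values above 0. Sham and 1 h each include a library with few circRNAs (2958 and 2551), which limits what all 3 libraries can share. The 3 d group has no such library (9354 to 10638 circRNAs) and held 1 of the 38. Whether the groups differ beyond the number of circRNAs in their libraries was not tested. Beside the 38 circRNAs, 20878 of the 21803 confined to libraries of a single group in this table were members. The pair with most circRNAs listed exactly 2 times, 193, was 6 h replicate 3 with 12 h replicate 2, both with the title prefix C. 1 h replicate 3, with prefix A&B, shared 160 with 6 h replicate 3. It shared 159 each with 12 h replicate 2 and with 1 h replicate 2, which has prefix A&B. 1 h replicate 3, 6 h replicate 3 and 12 h replicate 2 are the libraries that list the most circRNAs. Sham replicate 2 and 1 h replicate 1, which list the fewest, shared 3.

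The choice of members depends on which libraries are looked at. Within the 9 libraries with title prefix A&B, 15738 of 31477 circRNAs (50.0%) were listed once, and within the 6 with prefix C, 15473 of 30953 (50.0%). Of the members over all 15 libraries, 10649 (51.0%) lay in A&B and 10229 (48.99%) in C. Within A&B alone the circRNAs listed once included CBT15_circR_5184 at 2.11 M SRPBM in 1 h replicate 2 and CBT15_circR_1124 at 2.02 M in 1 h replicate 3, which other libraries list when all 15 are counted. Within C alone they included CBT15_circR_19961, at 3125 SRPBM (272 reads) in 6 h replicate 1, beside CBT15_circR_5194.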

How the data were processed

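Whole-blood circRNA libraries of 15 rat samples were described from 1 deposited table. Its values are a signal in SRPBM, normalized by the authors to mapped reads, and come from find_circ, per the file's name. Bowtie 0.12.2 and Rnor_6.0 are named in the submitters' processing notes without a role. The threshold for listing a circRNA was not given in the sources used here. Columns were matched to samples by their titles.

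Reads were the value divided by the library's step (smallest value above 0 taken as 2 reads), and 100% of values were whole within 0.01 read. Mapped reads were computed as 1e9 divided by this step. No filter was applied, and no 2 libraries were identical (0 pairs). Counts, shares, Wilson and Poisson intervals were computed in Python 3.11.15 with pandas 2.3.3 and scipy 1.17.1, after the counting was tested on a simulated table. No test between groups was made, because the values chose the members.

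Named circRNAs were the 10 highest members, the highest of each library, and the 5 highest within 10 running numbers of 3 abundant circRNAs. Others (CBT15_circR_5190, CBT15_circR_1124, CBT15_circR_19961 and the neighbours) were named after their values were seen. Members and rules were chosen with earlier results of these data known.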

Additional observations from a re-analysis of the deposited data

How the results depend on the processing

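The number of members stayed within 1.5 times of 20878 under the alternatives run, except where listing needed at least 5 reads, which left 10526. Their share of the listed circRNAs was 46.1% with at least 3 reads or with a common minimum of 30.3 SRPBM, 42.9% with at least 5 reads, 50.0% within either title prefix, 61.4% with circRNAs of 1 or 2 libraries taken as members, and 47.8% to 48.5% without each library in turn. Their share of back-spliced reads was 0.418% with at least 3 reads and 0.419% with the common minimum, 0.382% with at least 5, 0.402% without the 2 libraries with fewest circRNAs, 3.96% within A&B, 0.722% within C, 0.689% with 1 or 2 libraries, 2.31% without circRNAs that reach 1 M SRPBM, and 0.406% to 0.480% without each library in turn. The value within A&B includes CBT15_circR_5184 and CBT15_circR_1124. The mean number per library fell outside 1 SD at 6 h (813 with at least 5 reads, 2564 within C, 2653 with 1 or 2 libraries), at 12 h (880, 2594 and 2684) and at 3 d (963 with at least 3 reads or the common minimum, 587 with at least 5, 1743 within A&B, 1812 with 1 or 2 libraries). Without each library in turn it was 729 to 1287 at sham, 953.5 to 1943.5 at 1 h, 1531 to 1972.5 at 6 h, 1619.5 to 1983.5 at 12 h and 1191 to 1273 at 3 d. At 3 d, 13 of these 15 values lay outside 1 SD of the mean over all libraries (1187 ± 11.6), and in the other 4 groups none did. The SD of those 4 groups was 401 to 1071, so this contrast follows the width of the SD. Leaving out a library can also only add members to the libraries that remain. The contrast therefore does not show that 3 d was less stable. The order of the group means changed with sham replicate 2 and 1 h replicate 1: sham (990) was lowest and 12 h (1712) highest over all libraries, and without these 2, 3 d (1198) was lowest and 1 h (1963.5) highest. In all, 250 of 342 values stayed within 1 SD, their counting interval or 1.5 times. These limits differ in width, so the count is no measure of stability. No paired analysis was made, since there was no test in which replicates could be paired. Values under 2 reads are not listed, so a member may be present below that limit in other libraries.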
